A study of Homo sapiens with 6 samples.

Results

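The 45 genes described here act in DNA replication or in the passage from G1 into S phase. They were chosen by name, by an exact match of the gene symbol in the array's probe annotation, and the probe set of greatest mean signal over all arrays stood for each. All 45 had a probe set of their own, of 19775 genes that did, and all 45 passed the filter on low signal, as did 12431 genes in all. Their messenger RNA was measured in VCaP, a human line from prostate cancer with the TMPRSS2/ERG fusion. The cells were transiently transfected with siRNA A against SOX9, with a different SOX9 siRNA, siRNA B, or with a non-target control siRNA, and RNA was taken 72 h later. There were 6 arrays of the Affymetrix U133 Plus 2.0 design, 2 for each of the 3 groups. All groups are the same cell line, and the design text calls the arrays of a group biological duplicates without saying whether cultures were separate, so p-values measure only the spread between these arrays. The series title names SOX9, a transcription factor, and the WNT pathway in prostate cancer, and the design text asks how knockdown differed from control.

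In G1, the origin recognition complex, CDC6 and CDT1 load the MCM helicase onto DNA, and geminin, the product of GMNN, restrains CDT1 once S phase has begun. CDC45 and the GINS complex then switch the helicase on, polymerase alpha with its primase subunit PRIM1 starts new strands, the clamp PCNA and its loader RFC hold the replicative polymerases on DNA, and enzymes such as ribonucleotide reductase and thymidylate synthase supply the nucleotides. E2F transcription factors, held back by the retinoblastoma protein until cyclin E and CDK2 act, are known to drive transcription of many of these genes late in G1, so their RNA marks cycling cells.

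Signals are MAS5 values on a linear scale, and folds and tests are on log2(signal + 16). The 2%-trimmed mean signal of the arrays ran from 142, in siRNA B replicate 1, to 188, in siRNA B replicate 2, so the siRNA B arrays held both ends of the range. SOX9 had a signal of 1469 and 1126 under control siRNA, 1108 and 673 under siRNA A and 609 and 334 under siRNA B. Both controls thus lay above the 4 knockdown arrays, and the log2 difference from control was -0.57 under siRNA A and -1.48 under siRNA B. For both siRNAs the limma adjusted p of SOX9 was 0.435, and 0.00189 with the replicate number as a block. With that block SOX9 was also called for siRNA B against control and between the siRNAs, but not for siRNA A against control. Without the block it was called in no comparison. All 10 luminal prostate markers analysed, among them KLK2, HOXB13 and EPCAM, were above the filter. Of 8 fibroblast and stromal markers, 6 were below it, and of 6 leukocyte and erythroid markers, 4 were. None of these markers was listed at 0 in any array.

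In their median, the replication and G1/S genes were higher under siRNA A than under siRNA B. Over the 45 genes the median log2 difference between siRNA A and siRNA B was 0.52, and 43 were higher under siRNA A, the exceptions being GMNN and CDK2. Over all genes tested this median was -0.034, 45.5% of genes were higher under siRNA A, and 6.64% had a difference at or above the median of the 45. Against control, the median was -0.47 under siRNA B, with 43 of 45 genes lower, and 0.11 under siRNA A, with 30 of 45 higher. The median over all genes tested was -0.021 under siRNA B and -0.046 under siRNA A. These comparisons share arrays, so they are not independent of each other, and in RNA from whole cultures fewer cycling cells and less RNA per cell cannot be told apart.

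Array by array, both siRNA A arrays lay above both siRNA B arrays for 34 of the 45 genes, against 15.7% of all genes tested, and for 0 of 45 were both below, against 15.2%. Both siRNA B arrays lay below both control arrays for 26 of the 45, against 26.2% of all genes, and above both for 0, against 13.1%. With siRNA A, 7 of the 45 had both arrays above both control arrays, against a background of 14.4%, and 0 had both below, against 23.8%. At 15.6%, the 7 are near the share of all genes and are not read as a result. These 7 were CDC6, MCM5, MCM10, POLA2, RFC5, TYMS and CHAF1B, named after their values were seen. For RFC5 this holds for the brightest probe set, while its other probe sets above the filter gave log2 differences of -0.16 and -0.30 for siRNA A against control. For 24 genes both siRNA A arrays lay between the control arrays, a position that was not counted over all genes tested. The 4 SOX9 siRNA arrays together were below both controls for 0 of 45 genes, against 11.8%, and above both for 0 of 45, against 4.58%.

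**Figure D1:**
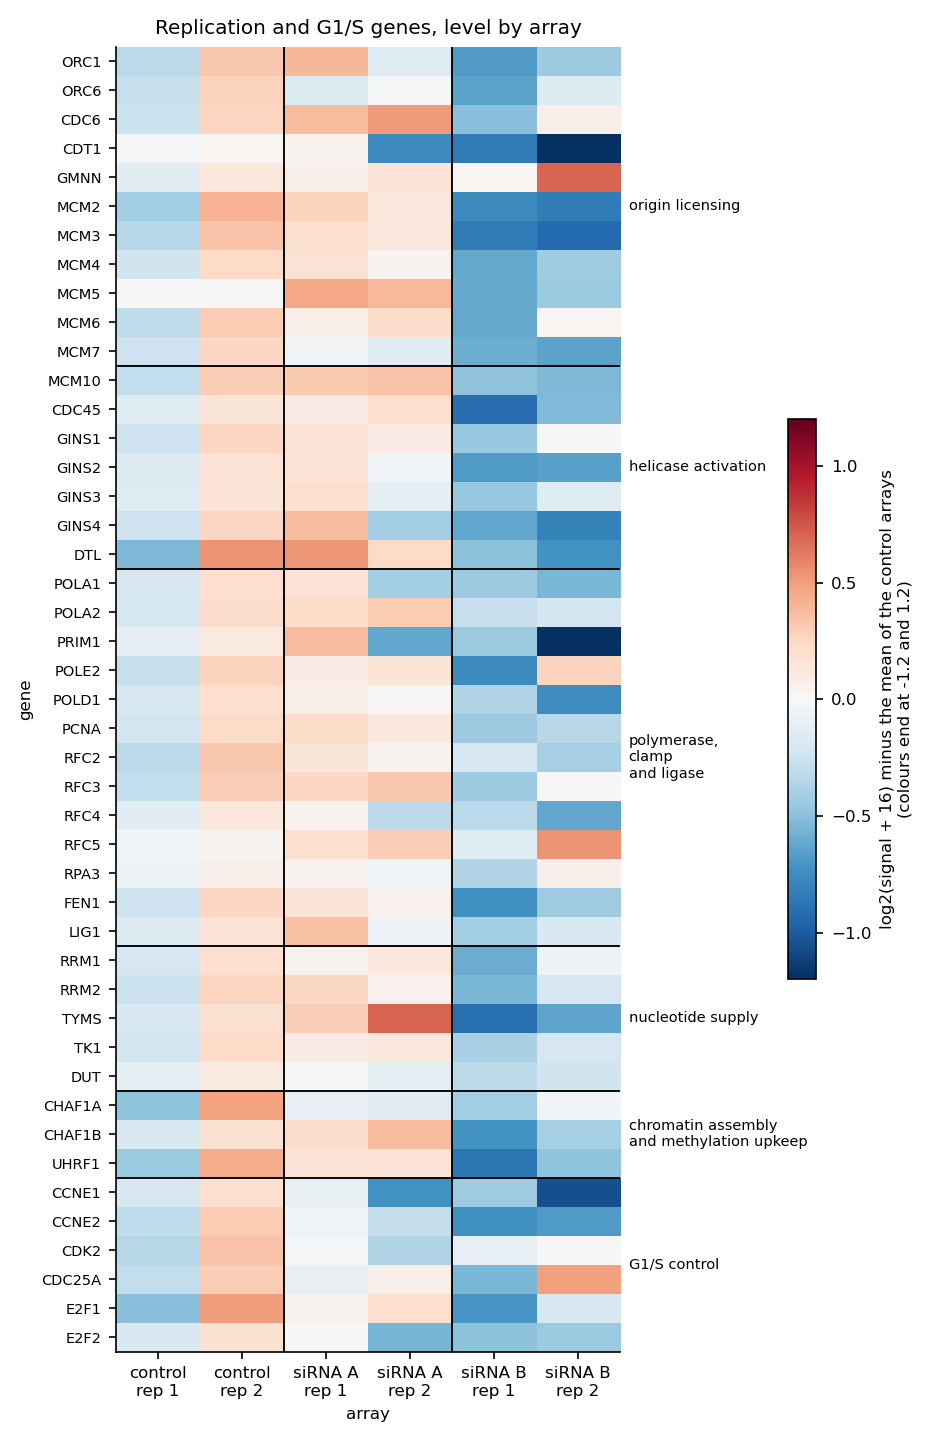
Level of each of the 45 genes (rows, by role) in each of the 6 arrays (columns), as log2(signal + 16) minus the mean of the control arrays, with blue for lower and red for higher and the colours ending at -1.2 and 1.2. The siRNA B columns are mostly blue, with GMNN, RFC5 and CDC25A among the few that are red in replicate 2, and the control columns differ from each other in most rows.

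The control arrays differed from each other for these genes. Control replicate 2 was higher than replicate 1 for 44 of the 45 genes, all but MCM5, against 8931 of the 12431 genes tested. The median log2 difference was 0.48 for the 45 genes, where all genes tested had 0.14. Set against the control mean, the median level of the 45 genes was -0.24 and 0.24 in the control arrays, 0.16 and 0.056 under siRNA A and -0.50 and -0.40 under siRNA B. Thus the siRNA A arrays lay within the range of the controls and the siRNA B arrays below it. Control replicate 1 lay below both siRNA A arrays for 37 genes, and control replicate 2 lay above both siRNA B arrays for 41. The share of all genes tested in these positions was not counted, so these counts are not read as a result. The choice of control array set the direction for siRNA A: its median was 0.34 without control replicate 2 and -0.15 without control replicate 1. For siRNA B it was -0.17 and -0.68. Between the siRNAs, where no control enters the difference, it lay between 0.43 and 0.605 when each array was left out in turn. The level of all genes tested moved too, from -0.17 in siRNA B replicate 1 to 0.13 in siRNA B replicate 2. Taken relative to all genes in the same array, the median of the 45 was -0.33 and -0.53 under siRNA B, 0.17 and 0.13 under siRNA A and -0.17 and 0.17 in the controls.

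**Figure D2:**
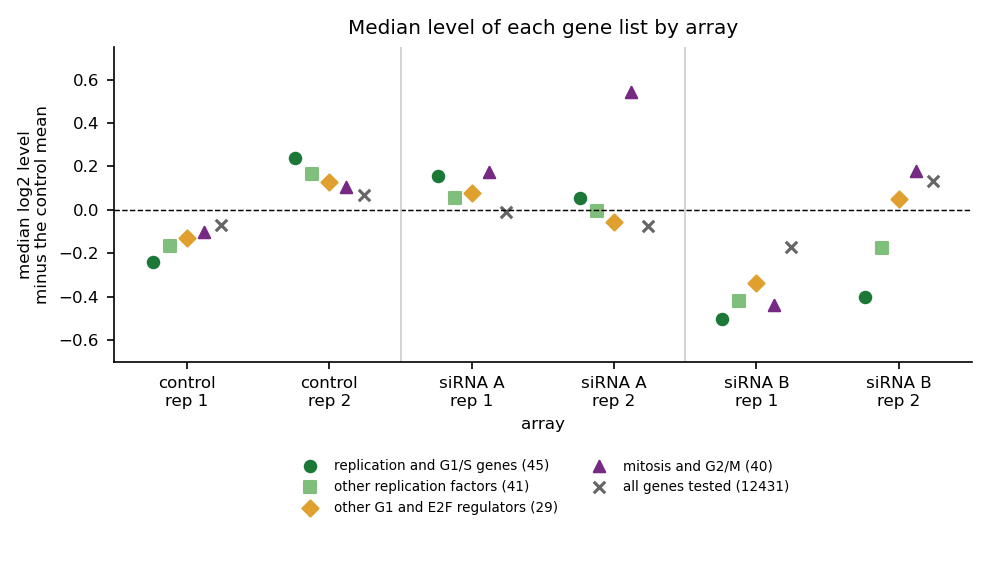
Median log2 level of each gene list in each array, relative to the mean of the control arrays (dashed line), for the 45 replication and G1/S genes, 41 other replication factors, 29 other G1 and E2F regulators, 40 mitosis genes and all 12431 genes tested. The replication and G1/S genes are at -0.50 and -0.40 in the siRNA B arrays and at -0.24 and 0.24 in the controls.

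Gene by gene, limma with Benjamini-Hochberg adjustment over all genes tested called 0 of the 45 in any comparison. For both SOX9 siRNAs against control it called 0.0402% of all genes and the smallest adjusted p among the 45 was 0.517, for CDT1. For siRNA A against control it called 0.0161% of all genes, for siRNA B against control 0.185%, and for siRNA A against siRNA B 0.0965%. The smallest adjusted p in limma was 0.999 under siRNA A, 0.168, for CDT1, under siRNA B, and 0.0688, for TYMS, between the siRNAs. At an unadjusted p below 0.05, limma counted 2 of the 45 for both siRNAs, 0 for siRNA A, 11 for siRNA B and 19 between the siRNAs, against 7.75%, 4.69%, 11.3% and 8.25% of all genes. With the replicate number as a block, limma called CDT1 for both siRNAs, 1 of 45 against 3.53% of all genes. For siRNA B against control this block called 4 of 45, CDT1, MCM3, PRIM1 and TYMS, against 5.94%. Between the siRNAs it called 5 of 45, TYMS, MCM3, MCM2, DTL and MCM5, against 2.90%, and for siRNA A against control it called 0. The block takes its spread from limma's trend alone, so its p-values can be too small. With the block and each array centred on the genes tested, where a spread per gene could be estimated, limma called 0 of the 45 for both siRNAs. That setting called CDT1 and TYMS for siRNA B, against 4.53% of all genes, and TYMS, MCM3, MCM5 and CDC45 between the siRNAs, against 1.99%.

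**Figure D3:**
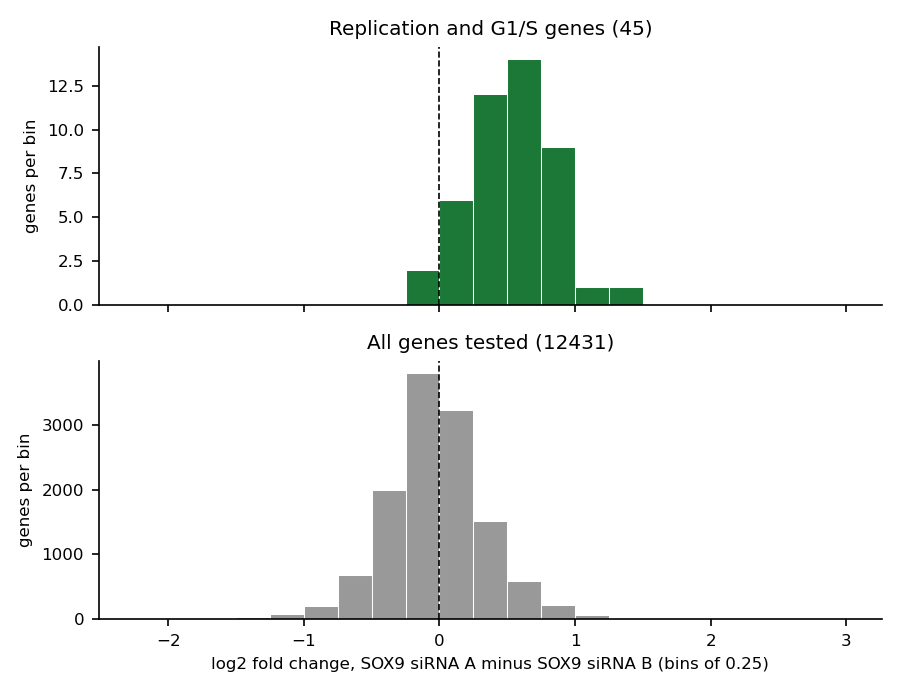
Number of genes (vertical axis) by log2 difference between siRNA A and siRNA B in bins of 0.25 (horizontal axis), for the 45 replication and G1/S genes above and all 12431 genes tested below, with a dashed line at 0. The 45 genes lie mostly to the right of 0, with a median of 0.52, and all genes centre near 0, with a median of -0.034.

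Values of other RNA differed between the same arrays. The ACTB 3'/5' signal ratio, which rises as RNA is shortened, was 3.53 and 3.79 under siRNA A, 3.34 and 2.91 under siRNA B and 3.07 and 3.16 under control. The same ratio for GAPDH was 1.10 and 1.19 under siRNA A, 1.11 and 1.11 under siRNA B and 1.05 and 1.04 under control, so it overlapped between the siRNAs. The summed signal of the 8 stromal markers was 422 and 746 under siRNA A, 1003 and 2300 under siRNA B and 382 and 552 under control. Lumican, LUM, a matrix proteoglycan, made up most of that sum in every array except control replicate 1. Without LUM the sum was 161 and 84.6 under siRNA A, 301 and 282 under siRNA B and 227 and 166 under control. The leukocyte and erythroid sum of 6 markers ran from 123 to 186 under siRNA B, 127 to 180 under siRNA A and 109 to 153 under control. The part of these in the difference between the siRNAs was not tested.

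Promoter sequence was examined because the genes lay on the same side together and E2F is known to act on many of them. RefSeq promoters of build GRCh38.p14 covering 250 bases before to 50 after a gene's start were found for 39 of the 45 genes; MCM4, MCM5, GINS4, RPA3, CCNE2 and CDK2 are named only. The letters TTTCCCGC, TTTCGCGC, TTTGCCGC and TTTGGCGC were searched on both strands; matches on opposite strands can overlap. They were found in 23 of 39 promoters, 59.0% with an exact 95% binomial interval of 42.1% to 74.4%, against 3.99% of the 27305 genes in the table and 6.49% of the 10157 tested genes in it. Of the other replication factors, 13 of 36 held a match, or 36.1%. Of the other G1 and E2F regulators 4 of 26 did, or 15.4%, and of the mitosis genes 3 of 33, or 9.09%. The letters CCAAT, on either strand, were in 59.0% of the 39 promoters, with an exact 95% binomial interval of 42.1% to 74.4%, against 39.7% of all genes and 43.3% of tested genes. They were in 61.1% of the other replication factors, 46.2% of the other G1 and E2F regulators and 75.8% of the mitosis genes. The median log2 difference between siRNA A and siRNA B was 0.52 for the 23 genes with an E2F match and 0.47 for the 16 without, and for siRNA B against control it was -0.38 with a match and -0.49 without. A match is a description of the letters only. The genes were chosen by name and E2F is known to act on many of them, so a high share was likely beforehand. It describes the choice of genes and not the siRNA arrays. The binomial intervals treat the genes as random draws, which they were not. The 200 bases before the start are shown for TYMS, MCM3 and DTL, 3 of the genes that the block called between the siRNAs, for CDT1, which it called against control, and for GMNN, the gene furthest in the other direction, with whole E2F matches in capitals.
TYMS, chr18:657453-657652, plus strand: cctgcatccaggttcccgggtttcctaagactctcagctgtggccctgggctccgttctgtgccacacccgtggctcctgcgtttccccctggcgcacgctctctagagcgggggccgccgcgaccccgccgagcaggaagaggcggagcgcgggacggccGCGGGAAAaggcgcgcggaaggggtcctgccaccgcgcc
MCM3, chr6:52284743-52284942, minus strand: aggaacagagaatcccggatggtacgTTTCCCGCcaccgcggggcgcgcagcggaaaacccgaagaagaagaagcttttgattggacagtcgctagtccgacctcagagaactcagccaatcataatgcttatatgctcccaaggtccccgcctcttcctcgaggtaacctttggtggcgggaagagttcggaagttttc
DTL, chr1:212035548-212035747, plus strand: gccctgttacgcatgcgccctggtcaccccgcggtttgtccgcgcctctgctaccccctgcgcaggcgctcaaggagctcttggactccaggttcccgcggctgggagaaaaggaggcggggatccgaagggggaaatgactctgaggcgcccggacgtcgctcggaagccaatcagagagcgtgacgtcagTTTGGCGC
CDT1, chr16:88803589-88803788, plus strand: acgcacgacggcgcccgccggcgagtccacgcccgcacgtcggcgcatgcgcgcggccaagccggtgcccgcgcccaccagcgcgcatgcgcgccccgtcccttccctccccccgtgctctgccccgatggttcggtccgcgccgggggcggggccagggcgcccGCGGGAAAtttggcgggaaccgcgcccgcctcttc
GMNN, chr6:24775213-24775412, plus strand: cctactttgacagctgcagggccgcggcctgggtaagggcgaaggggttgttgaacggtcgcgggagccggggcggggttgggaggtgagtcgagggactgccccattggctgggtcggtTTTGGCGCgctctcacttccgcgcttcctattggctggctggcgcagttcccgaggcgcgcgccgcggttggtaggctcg
In TYMS and CDT1 the match GCGGGAAA is TTTCCCGC read on the other strand, and its first base lay 39 and 35 bases before the start. DTL ends in TTTGGCGC, 8 bases before the start, while GMNN has the same letters 80 bases before it. MCM3 has TTTCCCGC 174 bases before the start and a further match, TTTCGCGC, that begins 4 bases before it and runs past the end of the printed stretch. The genes printed were picked from those with a match. PRIM1, which the block also called for siRNA B against control, has none, as is true of 16 of the 39 promoters, and GMNN has one although it was not higher under siRNA A.

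Among the 11 origin licensing genes, 10 were higher under siRNA A than under siRNA B, with a median log2 difference of 0.66. Both siRNA A arrays lay above both siRNA B arrays for 9 of the 11, against 15.7% of all genes tested. MCM3, a subunit of the helicase, had a signal of 835 and 804 under siRNA A, 401 and 374 under siRNA B and 571 and 926 under control siRNA. Its siRNA B arrays were the lowest of the 6, and its siRNA A arrays lay between the controls. The log2 difference between the siRNAs was 1.05 ± 0.30 (SE), or 2.07-fold, with a limma adjusted p of 0.242, and of 0.0133 with the block. Against control, siRNA B was at 54.2% of the control level, with a limma adjusted p of 0.266 and of 0.0353 with the block.

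MCM2, another subunit, had a signal of 1093 and 991 under siRNA A, 528 and 500.0 under siRNA B and 676 and 1213 under control. The order of its arrays was the same as for MCM3, with the controls on either side of siRNA A. Its log2 difference between the siRNAs was 1.00 ± 0.31 (SE), with a limma adjusted p of 0.293, and of 0.0196 with the block. MCM5 had a signal of 353 and 334 under siRNA A, 160 and 181 under siRNA B and 253 and 250 under control. Unlike the other MCM genes it had nearly equal controls, and the siRNAs stood on opposite sides of them. The log2 difference between the siRNAs was 0.95 ± 0.27 (SE), with a limma adjusted p of 0.240, and of 0.0242 with the block. A second, dimmer MCM5 probe set gave a log2 difference of 0.37 between the siRNAs and of 0.11 between siRNA B and control, so it did not show the siRNA B arrays below control.

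The remaining MCM subunits had smaller differences. MCM7 had a signal of 742 and 691 under siRNA A, 501 and 482 under siRNA B and 638 and 909 under control, a log2 difference of 0.53 between the siRNAs. MCM4 (0.63) had no overlap between the siRNAs either. MCM6 was at 1388 and 1529 under siRNA A and at 860 and 1347 under siRNA B, a log2 difference of 0.43, and its siRNA B replicate 2 lay between the controls of 1068 and 1634.

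CDT1, which loads the helicase, was at 244 and 134 under siRNA A, 125 and 76.3 under siRNA B and 233 and 241 under control. Both siRNA B arrays were below every other array, and of the siRNA A arrays replicate 2 alone was below the controls. The log2 difference of siRNA B from control was -1.15 ± 0.32 (SE), with a limma adjusted p of 0.168, and of 0.00112 with the block. For both siRNAs the log2 difference was -0.76, with a limma adjusted p of 0.517, and of 0.0378 with the block. The CDT1 probe set is of a kind that can bind related transcripts, and the gene's other probe set, at a mean signal of 25.6, gave -0.58 for siRNA B against control.

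CDC6, the loading partner of CDT1, was at 352 and 385 under siRNA A, above the controls of 220 and 321, and at 183 and 281 under siRNA B, which overlapped them. ORC1, the largest subunit of the origin recognition complex, had a log2 difference of 0.68 between the siRNAs at low signals of 33.0 to 87.5. ORC6 was at 632 and 702 under siRNA A and at 453 and 636 under siRNA B, so its siRNA arrays overlapped. GMNN, which encodes the inhibitor of CDT1, went the other way, at 1737 and 1865 under siRNA A, 1690 and 2714 under siRNA B and 1510 and 1838 under control. Its log2 difference was -0.25 ± 0.27 (SE), with a limma adjusted p of 0.928, and of the siRNA B arrays replicate 2 lay above all others while replicate 1 lay among them.

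**Figure D4:**
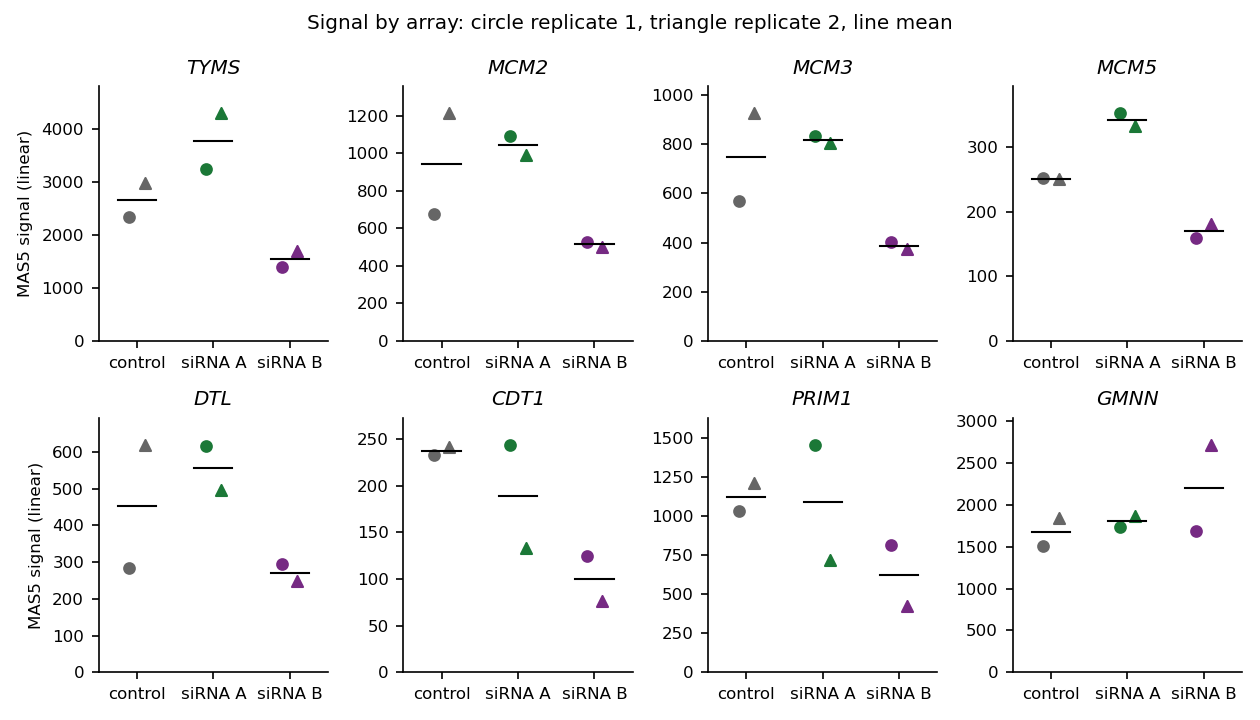
MAS5 signal (linear, axis from 0) of 8 genes in each array, with a circle for replicate 1, a triangle for replicate 2 and a line at the mean of the 2 arrays. For TYMS, MCM2, MCM3, MCM5, DTL and CDT1 the siRNA arrays do not touch, while for PRIM1 they overlap and for GMNN siRNA B replicate 2 is the highest array.

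All 7 genes grouped under helicase activation had both siRNA A arrays above both siRNA B arrays, against 15.7% of all genes tested. Their median log2 difference was 0.73, with a range from 0.34, for GINS3, to 0.99, for DTL. DTL was grouped here although it is known to act on CDT1. DTL, a ubiquitin ligase subunit that marks CDT1 for destruction in S phase, was at 616 and 496 under siRNA A, 295 and 248 under siRNA B and 285 and 619 under control. The control arrays of this gene were further apart, by 1.08 on the log2 scale, than the means of the siRNAs, and control replicate 1 lay between the siRNA B arrays. The log2 difference between the siRNAs was 0.99 ± 0.34 (SE), with a limma adjusted p of 0.359, and of 0.0218 with the block. Its other probe set, with a mean signal of 133, gave 0.96.

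CDC45, part of the active helicase, was at 420 and 450 under siRNA A, 200 and 266 under siRNA B and 352 and 434 under control, a log2 difference of 0.87 ± 0.29 (SE) between the siRNAs and a limma adjusted p of 0.330. Both its siRNA B arrays lay below the controls. GINS2, a GINS subunit, was at 181 and 156 under siRNA A, 93.3 and 95.9 under siRNA B and 140 and 182 under control, and GINS4 at 113 and 59.2, 48.8 and 40.9, and 68.0 and 103. For both, siRNA A and control overlapped and siRNA B was below them, although a dimmer GINS2 probe set gave 0.26 for siRNA B against control. MCM10, which helps CDC45 and the polymerase onto DNA, was at 318 and 325 under siRNA A, 176 and 170 under siRNA B and 204 and 313 under control, a log2 difference of 0.84. All 3 of its probe sets placed siRNA B below control and siRNA A above siRNA B, the other pair with differences of 0.91 and 0.96.

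Of the 13 polymerase, clamp and ligase genes, all were higher under siRNA A than siRNA B in their means, with a median log2 difference of 0.44. Both siRNA A arrays lay above both siRNA B arrays for 9 of the 13, against 15.7% of all genes tested. PRIM1, the catalytic primase subunit, was at 1454 and 721 under siRNA A, 816 and 427 under siRNA B and 1031 and 1209 under control. In each siRNA its replicate 2 was lower than its replicate 1, by 1.00 under siRNA A and 0.91 under siRNA B on the log2 scale, so the siRNAs overlapped although each pair of same-numbered arrays kept the order. Against control, siRNA B was at 53.6% of the control level, a log2 difference of -0.90 ± 0.36 (SE), with a limma adjusted p of 0.356, and of 0.0267 with the block.

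PCNA, the sliding clamp, was at 5312 and 4957 under siRNA A, 3369 and 3609 under siRNA B and 3872 and 5355 under control, a log2 difference of 0.56 between the siRNAs. FEN1, the nuclease that trims flaps on the lagging strand, was at 1138 and 1059 under siRNA A and 604 and 753 under siRNA B, a difference of 0.69. For both genes the siRNA B arrays lay below both controls, and the siRNA A arrays lay between them. POLA1, the catalytic subunit of polymerase alpha, was at 330 and 215 under siRNA A, 210 and 193 under siRNA B and 250 and 337 under control, so siRNA A replicate 2 lay close to the siRNA B arrays. RFC4, a clamp loader subunit, was at 891 and 694 under siRNA A, 687 and 555 under siRNA B and 791 and 946 under control, with its siRNA A and siRNA B arrays only just apart. POLD1, the catalytic subunit of polymerase delta, had a difference of 0.60, and LIG1, the ligase that seals lagging strand fragments, one of 0.44.

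RFC5 and RPA3 had the smallest differences of this role by the probe set of greatest signal, which for RFC5 went against its other probe sets. RFC5, a clamp loader subunit, was at 2049 and 2207 under siRNA A, 1624 and 2611 under siRNA B and 1756 and 1839 under control, a log2 difference of 0.046 between the siRNAs. The siRNA B arrays lay on either side of all others. Its other probe sets above the filter, with mean signals of 579 and 160, gave log2 differences of 0.66 and 0.70 between the siRNAs and of -0.83 and -0.998 for siRNA B against control. RPA3, the small subunit of the single-strand binding protein, was at 1140 and 1065 under siRNA A, 857 and 1159 under siRNA B and 1059 and 1158 under control, so its arrays overlapped in every comparison.

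All 5 nucleotide supply genes had both siRNA A arrays above both siRNA B arrays, against 15.7% of all genes tested. TYMS, thymidylate synthase, was at 3233 and 4292 under siRNA A, 1401 and 1698 under siRNA B and 2327 and 2986 under control. The 3 groups did not overlap: siRNA A was above control and siRNA B below it. The log2 difference between the siRNAs was 1.26 ± 0.25 (SE), or 2.40-fold, with a limma adjusted p of 0.0688, and of 4.11e-05 with the block. Against control it was -0.77 ± 0.25 (SE) under siRNA B, with a limma adjusted p of 0.236, and of 0.0277 with the block. With siRNA A it was 0.50, with a limma adjusted p of 0.999, and of 0.502 with the block. A second TYMS probe set, with a mean signal of 509, gave 1.25 between the siRNAs.

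RRM1, the large subunit of ribonucleotide reductase, was at 2792 and 2952 under siRNA A, 1785 and 2601 under siRNA B and 2353 and 3124 under control. Only siRNA B replicate 1 lay outside the control range. RRM2, its small subunit, had a log2 difference of 0.52 between the siRNAs and TK1, thymidine kinase, one of 0.41. DUT, which removes dUTP, was at 5020 and 4712 under siRNA A, 4076 and 4287 under siRNA B and 4699 and 5474 under control, a difference of 0.22.

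Among the 3 genes of chromatin assembly and methylation upkeep, CHAF1B and UHRF1 separated the siRNAs and CHAF1A did not. CHAF1B, a subunit of the complex that places histones on new DNA, was at 214 and 242 under siRNA A, 105 and 134 under siRNA B and 159 and 209 under control, a log2 difference of 0.85 ± 0.28 (SE) and a limma adjusted p of 0.316. UHRF1, which brings the maintenance methyltransferase to new DNA, was at 619 and 625 under siRNA A, 296 and 394 under siRNA B and 403 and 764 under control, a log2 difference of 0.84 ± 0.33 (SE) and a limma adjusted p of 0.475. For both genes the siRNA B arrays lay below both controls. CHAF1A, the partner of CHAF1B, was at 193 and 187 under siRNA A, 151 and 202 under siRNA B and 143 and 297 under control, so the siRNA arrays all lay between the controls.

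The 6 G1/S control genes differed least between the siRNAs, with a median log2 difference of 0.26 and 5 of 6 higher under siRNA A. Against control their median was -0.18 under siRNA A and -0.46 under siRNA B. For 2 of the 6, CCNE2 and E2F1, both siRNA A arrays lay above both siRNA B arrays. Of all genes tested 15.7% did so and 15.2% had the reverse, so 2 of 6 is not read as a result. CCNE1, cyclin E1, was at 136 and 82.0 under siRNA A, 104 and 61.9 under siRNA B and 126 and 168 under control. As for PRIM1 and CDT1, replicate 2 was lower than replicate 1 in both siRNAs, and for CCNE1 both siRNA B arrays lay below the controls. Its log2 difference for both siRNAs against control was -0.57, with a limma adjusted p of 0.644, and of 0.194 with the block. CCNE2, cyclin E2, was at 789 and 668 under siRNA A, 485 and 507 under siRNA B and 661 and 1015 under control, under siRNA A between the controls and siRNA B below them. E2F2, a transcription factor, was at 191 and 126 under siRNA A, 133 and 138 under siRNA B and 168 and 221 under control, and its siRNA arrays overlapped.

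E2F1 was dim, at 61.4 and 70.5 under siRNA A, 29.9 and 49.6 under siRNA B and 37.1 and 90.0 under control, and its controls lay further apart than its siRNAs. CDK2, the kinase partner of cyclin E, was at 466 and 366 under siRNA A, 442 and 471 under siRNA B and 370 and 604 under control, a log2 difference of -0.14. CDC25A, the phosphatase that activates CDK2, was at 200 and 225 under siRNA A, 142 and 310 under siRNA B and 173 and 267 under control, a difference of 0.0077. Other CDC25A probe sets gave 0.47 and -0.33, so they disagreed in direction. For both genes the siRNA arrays overlapped.

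Other probe sets gave a check of the same RNA that the choice of probe set had left out. Of the 45 genes, 28 had more than 1 probe set, and 34 of their other probe sets were above the filter. Of these, 33 were higher under siRNA A than siRNA B, with a median log2 difference of 0.39, and 30 were lower under siRNA B than control. They share the arrays with the first set, so they bear on the probes and not on the spread between cultures.

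Other genes of the pathway had smaller medians. Of 41 other replication factors tested, 31 were higher under siRNA A than siRNA B, with a median log2 difference of 0.31. Limma called 0 of the 41, or 3 with the block, HELLS, POLE3 and DSCC1, all higher, against 2.90% of all genes with the block. With siRNA B against control the median of the 41 was -0.32 and 32 were lower. There limma called 0, or 5 with the block, POLD3, EXO1, HELLS, RBBP4 and BRCA1, all lower, against 5.94% of all genes. POLD3, a polymerase delta subunit, was at 365 and 252 under siRNA A, 188 and 146 under siRNA B and 360 and 386 under control. Its siRNA B arrays were the lowest, and siRNA A overlapped control. HELLS, a chromatin remodelling enzyme, was at 667 and 705 under siRNA A, 347 and 270 under siRNA B and 506 and 743 under control, so that siRNA A lay between the controls and siRNA B below them. The genes called with the block in these lists are named after their values were seen.

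Of 29 other G1 and E2F regulators tested, 21 were higher under siRNA A than siRNA B, with a median of 0.30. Limma called 0 of the 29, or 3 with the block, SKP2 and MYC higher and CDKN1C lower, against 2.90% of all genes with the block. SKP2, which targets the CDK inhibitor p27 for destruction, was at 1181 and 1160 under siRNA A, 578 and 505 under siRNA B and 1019 and 1262 under control, under siRNA B below all other arrays. MYC, a growth-promoting transcription factor, was at 6146 and 5195 under siRNA A, 4800 and 1933 under siRNA B and 6618 and 7730 under control. For MYC both controls lay above all 4 knockdown arrays, with a log2 difference of -0.78 for both siRNAs, a limma adjusted p of 0.480, and of 0.000831 with the block. CDKN1C, the CDK inhibitor p57, was at 248 and 122 under siRNA A, 473 and 473 under siRNA B and 289 and 255 under control, so that siRNA B was above and siRNA A below both controls. With siRNA B against control the block also called TFDP1 and E2F8, both lower, beside SKP2 and MYC, against 5.94% of all genes.

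Of 40 mitosis and G2/M genes, 40 were higher under siRNA A than siRNA B in their means, with a median of 0.47. Limma called 0, or 2 with the block, MKI67 and KIF23, against 2.90% of all genes with the block. Against control the mitosis genes differed from the replication genes in siRNA A, with a median of 0.36 and 38 of 40 higher, and had a median of -0.16 under siRNA B. For siRNA A against control limma called 0, or 1 with the block, CDC20, among 223 of 12431 genes. CDC20 had a log2 difference of 1.03, with a limma adjusted p of 0.992, and of 0.0211 with the block. CDK1 had all 4 knockdown arrays below both controls, with a log2 difference of -0.44 for both siRNAs. Array by array the median of the mitosis genes was 0.17 and 0.54 under siRNA A and -0.44 and 0.18 under siRNA B, so the siRNA B arrays stood on either side of the controls. Taken relative to all genes in the same array, it was -0.27 and 0.047 under siRNA B and -0.033 and 0.033 in the controls. By that measure siRNA B replicate 2 was only just above the controls. For the replication and G1/S genes the median was below both controls in both siRNA B arrays. Gene by gene, both siRNA B arrays lay below both controls for 26 of those 45 genes. This held for 11 of the 40 mitosis genes and 26.2% of all genes tested. It also held for 20 of the 41 other replication factors and 13 of the 29 other G1 and E2F regulators. Both siRNA A arrays lay above both siRNA B arrays for 34 of the 45 genes, against 15.7% of all genes tested. The same was so for 22 of the 41 other replication factors, 12 of the 29 other regulators and 21 of the 40 mitosis genes. The difference between the lists was not tested.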

How the data were processed

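The deposited values are linear array intensity, a signal for each probe set, made with MAS5 per the submitters' processing notes. Not given in the sources used here were its version, its scaling target and any genome build, and the authors' scaling was kept. Of 54675 probe sets, 62 controls were left out, and the platform annotation gave 1 symbol to 41097, several to 1801 and none to 11777. Through their gene identifiers 41037 of the first were found in RefSeq, with 0 symbols updated. Genes whose mean log2(signal + 16) reached the median of all probe sets, a signal of 22.0, were tested.

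The fit used limma 3.58.1 (R 4.3.3) on 3 groups over 6 arrays, with 3 residual degrees of freedom, and moderated the spread by eBayes along a trend with intensity. Calls were made below 0.05 after Benjamini-Hochberg adjustment over all genes. The code was tested on simulated data. The number of arrays limits the precision. Members, lists and settings were chosen with earlier results of these data known. All 45 could be named, with full statistics for up to 3 genes per role with the smallest p for both siRNAs and for called genes; MCM2, MCM5 and DTL were added after the block called them. Of the other lists up to 4 genes by the same p could be named.

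Replicate numbers are shared by the groups, but no label says what they mark. After each group mean was taken off, arrays with the same number had a correlation of 0.63 for the siRNA pair, 0.18 for siRNA A with control and 0.18 for siRNA B with control, all over 0.1. The main fit did not pair arrays by number. A fit with the number as a block was therefore run beside it. Blocked values or calls are printed for some genes, whether or not they change a call. The block was seen to change calls in earlier work on these data. Alternatives were other offsets, scalings, filters, probe set rules, eBayes settings, arrays left out and thresholds. Promoter sequences are RefSeq's, from a table of GRCh38.p14.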

Additional observations from a re-analysis of the deposited data

Results flagged for a closer look

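For 5 of the 45 genes the effects of the siRNAs differed by a test of the difference itself, limma with the replicate number as a block. The log2 difference between siRNA A and siRNA B was 1.26 for TYMS, with a limma adjusted p of 4.11e-05. It was 1.05 for MCM3 (limma adjusted p 0.0133), 1.00 for MCM2 (0.0196), 0.99 for DTL (0.0218) and 0.95 for MCM5 (0.0242). This block called 2.90% of all genes tested and estimated no spread per gene. With the block and each array centred on the genes tested, which allows a spread per gene, MCM2 and DTL were not called, while TYMS, MCM3 and MCM5 were. Both siRNA A arrays lay above both siRNA B arrays in all 5. Without the block the limma adjusted p was 0.0688, 0.242, 0.293, 0.359 and 0.240 in the same order.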

How the results depend on the processing

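With the replicate number as a block, the members called in limma went from 0 to 1 for both siRNAs against control, to 4 for siRNA B against control and to 5 between the siRNAs. With the block and median centring of all probe sets they were 1, 7 and 14. With the block and centring on the genes tested, chosen after seeing the data, they were 0, 2 and 4. Limma's prior degrees of freedom were infinite under the first, 26.8 under the second and 7.48 under the third, and the share of all genes called was 3.53%, 4.56% and 0.491% for both siRNAs, 5.94%, 8.80% and 4.53% for siRNA B and 2.90%, 4.83% and 1.99% between the siRNAs. With only replicate 2 of the siRNAs as 1 group, 1 member, CDT1, was called for both siRNAs. Between the siRNAs 1 member, TYMS, was called with robust eBayes, with only the compared groups in the fit and at a threshold of 0.10. The share of all genes called at these settings is not given here, so these calls cannot be set against it. Leaving out an array leaves 1 array in its group, so effect sizes alone are given. Without siRNA B replicate 1, the log2 difference of siRNA B from control was -1.46 for CDT1 and -1.35 for PRIM1. That of TYMS between the siRNAs was then 1.13, and it was 1.26 without either control array. For siRNA A 0 members were called under all 21 alternatives.

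The median over the members kept its direction under all 20 alternatives between the siRNAs. Leaving out each array gave -0.43 to 0.080 for both siRNAs, reversed without control replicate 2, -0.15 to 0.34 for siRNA A, reversed without control replicate 1, -0.68 to -0.17 for siRNA B and 0.43 to 0.605 between the siRNAs. For both siRNAs, leaving out each array gave -0.31 to 0.044 for TYMS, -0.33 to 0.080 for RRM1, -0.71 to 0.19 for UHRF1, -0.66 to 0.31 for CHAF1A, -0.31 to 0.051 for CHAF1B, -0.72 to 0.11 for MCM2 and -0.65 to 0.42 for DTL, with the upper end, a reversal, without control replicate 2. The median over probe sets reversed it for GINS2 (0.54), CHAF1A (0.088) and MCM5 (0.12). Replicate 2 of the siRNAs alone reversed it for TYMS (0.035) and RRM1 (0.031), replicate 1 alone for DTL (0.020), and leaving out siRNA B replicate 1 for RRM1 (0.011). Between the siRNAs CHAF1A reversed without siRNA B replicate 1 (-0.081) and E2F2 without siRNA A replicate 1, with a range of -0.093 to 0.46 over arrays left out. The cause of these changes was not tested. Across scalings, offsets and probe set rules, 31 to 35 members had siRNA A arrays above siRNA B arrays, against 15.1% to 19.3% of all genes, and 25 to 32 had siRNA B arrays below control, against 24.5% to 26.2%. Of all genes, limma called 0 to 586 for both siRNAs, 0 to 223 for siRNA A, 0 to 1094 for siRNA B and 0 to 600 between the siRNAs, so calls of single genes moved widely. A promoter window of 100 bases before the start gave an E2F match in 53.8% of members, 3.28% of tested genes and 2.07% of all genes. In that window 36.1% of other replication factors, 11.5% of other G1 and E2F regulators and 3.03% of mitosis genes had a match.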
